A study of Homo sapiens with 4 samples.

Results

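The 46 genes described here encode the DNA replication machinery and its S-phase partners: origin licensing factors, the MCM2-7 helicase and its activators, the replicative polymerases, the sliding clamp and its loader, the single-strand binding complex RPA, enzymes of Okazaki fragment joining and of nucleotide supply, the E-type cyclins and 3 other S-phase genes. They were taken by symbol from the gene-level count tables, which hold 52402 different symbols. All 46 were found, and all 46 passed the filter on low counts (CPM, counts per 1000000 counts of a library, of at least 1 in 1 of the 2 libraries compared) in both lines.

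The study set mock control cells against cells in which CRISPR-Cas9 had been used to knock out (KO) the env gene of HERV-K119, an endogenous retrovirus, in cultures labelled SKOV3 and OVCAR3, which are human ovarian cancer cell lines. The 4 groups were SKOV3 mock (genotype Control), SKOV3 KO (genotype HERV-K119 KO), OVCAR3 mock (Control) and OVCAR3 KO (HERV-K119 KO), with 1 library each. All cultures, mock included, received hygromycin after transfection, and the labels do not say whether a knockout culture was a single clone or a pool. The provirus itself was not analysed here, so its RNA gives no check of the knockout. Total counts were between 15145483 and 22057693. Levels below are CPM scaled to effective library size, ratios are log2 of KO over mock within a line, and brackets give the exact 95% counting interval, which covers counting error only. Each group is a single library, so differences within a line stand without replication.

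DNA replication starts when the origin recognition complex, CDC6 and CDT1 load the MCM2-7 hexamer onto DNA in G1, a step that geminin (GMNN) blocks once S phase has begun. In S phase CDC45 and the GINS complex join MCM2-7 to form the active helicase, polymerase alpha with primase lays down primers, and polymerases epsilon and delta extend them with the clamp PCNA, which the RFC complex loads. Cyclin E drives the entry into S phase, and many of these genes are activated together at the G1/S transition by E2F transcription factors. Their transcripts are therefore commonly read as markers of proliferating and S-phase cells, and in bulk RNA fewer cells in S phase and less RNA per cell cannot be told apart.

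Promoter windows of 300 bases (250 before to 50 after the gene start, RefSeq, GRCh38.p14) were found for 38 of the 46 genes. An E2F motif was searched on both strands as TTTGGCGC, TTTGCCGC, TTTCGCGC or TTTCCCGC, and matches on the 2 strands may overlap. It was present in 18 of 38 windows, which is 47.4%, against 4.38% of 14571 windows of protein-coding genes. A CCAAT box (CCAAT, either strand) was in 55.3% of the members' windows and 36.4% of the protein-coding ones. The CHR element of late cell-cycle genes, searched as TTTGAA or TTCGAA, was in 5.26% and 13.3%. The E2F letters were thus shared by many members, and they are shown for MCM2 and MCM7, which were lower in OVCAR3 KO, for MCM6, a subunit of the same helicase that was higher there, and for GINS1, which was among the highest there. The windows are chr3:127598161-127598460 (plus strand) for MCM2, chr2:135876394-135876693 (minus strand) for MCM6, chr7:100101348-100101647 (minus strand) for MCM7 and chr20:25407423-25407722 (plus strand) for GINS1, each written 5′ to 3′ on the gene's strand with E2F matches in capitals.
MCM2: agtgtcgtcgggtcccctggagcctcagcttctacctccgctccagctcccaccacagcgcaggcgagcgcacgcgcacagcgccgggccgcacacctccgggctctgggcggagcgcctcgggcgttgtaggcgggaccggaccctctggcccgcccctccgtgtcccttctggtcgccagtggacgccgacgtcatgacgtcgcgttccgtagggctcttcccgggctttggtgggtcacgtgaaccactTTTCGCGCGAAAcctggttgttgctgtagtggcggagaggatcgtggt
MCM6: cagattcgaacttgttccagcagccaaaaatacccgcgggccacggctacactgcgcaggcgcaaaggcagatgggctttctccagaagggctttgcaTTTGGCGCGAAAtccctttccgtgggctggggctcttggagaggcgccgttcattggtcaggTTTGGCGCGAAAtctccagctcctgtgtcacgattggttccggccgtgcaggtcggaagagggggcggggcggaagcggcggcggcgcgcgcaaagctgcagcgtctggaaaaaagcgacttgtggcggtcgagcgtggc
MCM7: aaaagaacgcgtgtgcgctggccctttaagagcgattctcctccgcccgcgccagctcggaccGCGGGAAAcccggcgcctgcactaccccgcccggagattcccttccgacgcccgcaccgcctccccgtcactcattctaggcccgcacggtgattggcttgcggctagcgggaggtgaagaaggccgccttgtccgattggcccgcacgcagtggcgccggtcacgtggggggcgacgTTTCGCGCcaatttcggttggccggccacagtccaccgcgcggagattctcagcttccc
GINS1: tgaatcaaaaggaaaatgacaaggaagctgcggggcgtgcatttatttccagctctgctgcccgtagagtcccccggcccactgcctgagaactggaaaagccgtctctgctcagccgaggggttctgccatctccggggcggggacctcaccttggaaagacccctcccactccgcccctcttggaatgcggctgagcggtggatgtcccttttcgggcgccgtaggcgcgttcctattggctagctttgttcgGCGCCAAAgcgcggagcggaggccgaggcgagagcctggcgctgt

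The MCM2 window held 2 overlapping matches, on opposite strands, the first starting 2 bases downstream of the gene's first base, and the MCM6 window held 4 matches as a pair of such overlaps. The 18 genes with a match had a median log2 ratio of 0.26 in SKOV3 and 0.30 in OVCAR3, and the 20 without had 0.23 and 0.31.

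Several facts of the libraries bear on all ratios. Mitochondrially encoded rows took between 5.16% and 5.93% of the counts in 3 libraries and 21.9% in OVCAR3 KO, where the nuclear RNA NEAT1 was at 1612 CPM against 142 to 446 in the others. Among protein-coding genes the OVCAR3 ratio was lower at higher GC content of the transcript, with a Spearman correlation across 12543 genes of -0.42, against 0.13 in SKOV3. Epithelial markers (6 of 6 detected) summed to between 5090 and 7378 CPM in 3 libraries and to 1981 in OVCAR3 KO. Of the leukocyte markers PTPRC and CD3E were at 0 in all 4 libraries, and CD68 gave most of the list's 9.98 to 35.7 CPM; of the fibroblast markers COL3A1 and LUM were at 0, and COL1A1 gave most of the 17.7 to 35.2 CPM. Endothelial markers summed to 0.487 to 2.31 CPM. The line labels were not borne out by all identity genes: CDKN2A, which SKOV3 is known to lack, was at 90.6 and 91.2 CPM in the SKOV3-labelled libraries, and VIM was at no more than 2.35 CPM in any library. MUC16, which encodes CA125 and is known from OVCAR3, was at 2.74 and 6.18 CPM in the OVCAR3-labelled libraries and at 0.0443 and 0.0634 in the SKOV3-labelled ones. ERBB2, amplified in SKOV3, was at 58.5 and 55.7 CPM in the SKOV3-labelled libraries and at 73.3 and 32.0 in the OVCAR3-labelled ones, PAX8 was between 3.33 and 8.83 CPM, and WT1 was at 0 in all 4. SKOV3 and OVCAR3 below name labels. The part of these differences in the ratios below was not tested, except where values with the trend on GC content and transcript length removed are given.

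**Figure D1:**
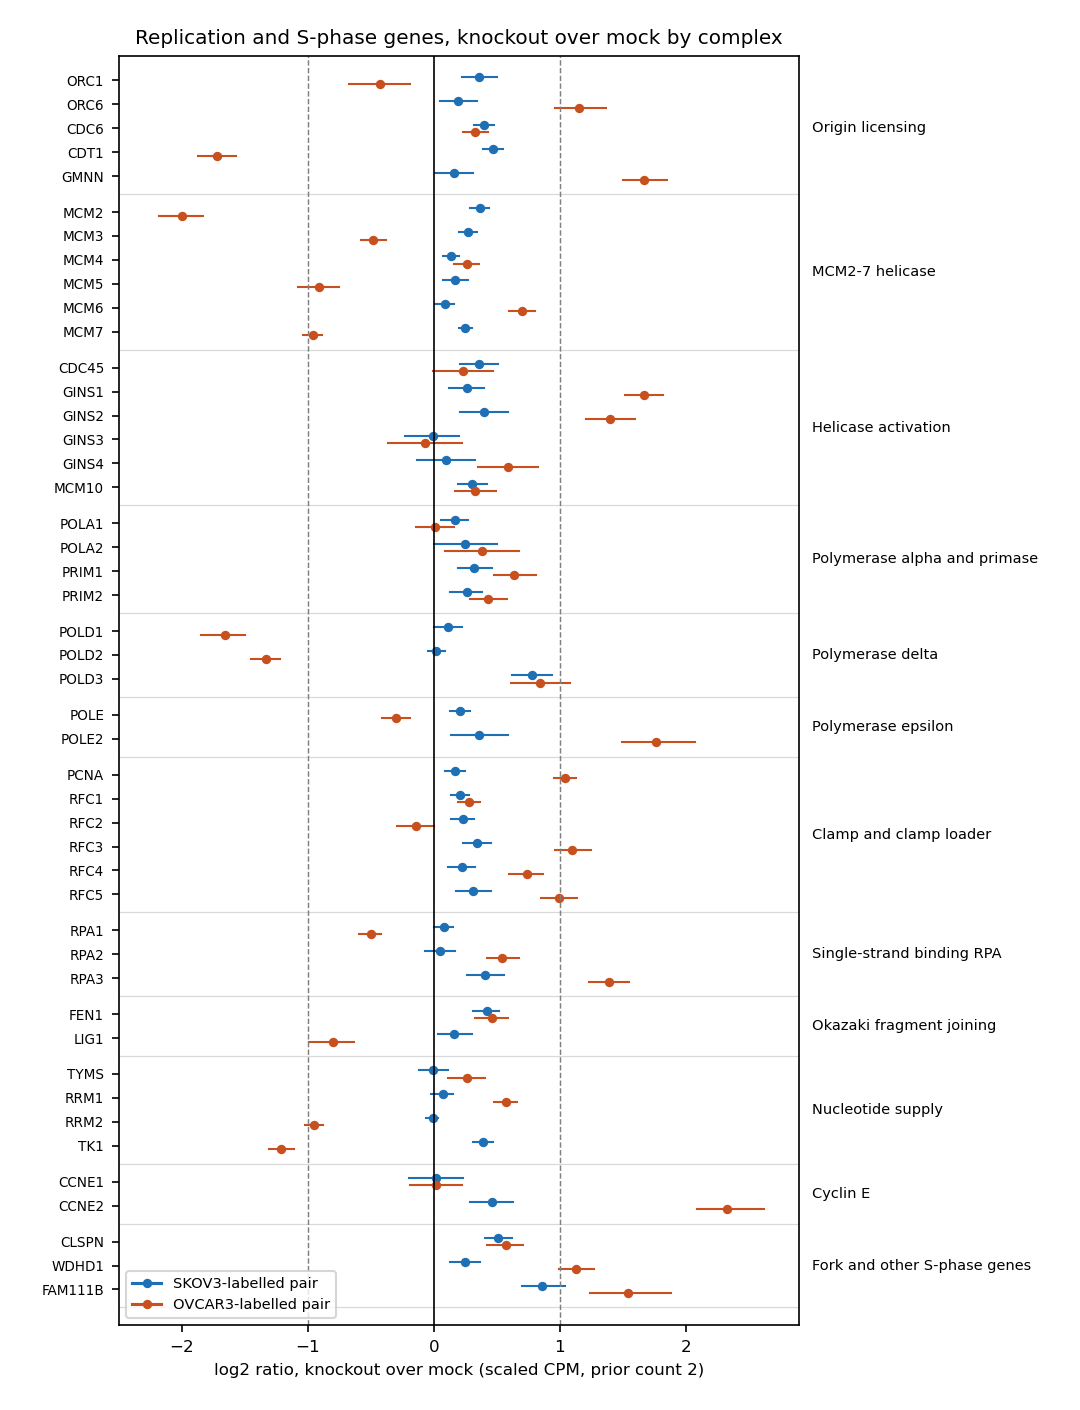
Log2 ratio of knockout over mock for each of the 46 genes (vertical axis, grouped by complex) in the SKOV3-labelled (blue) and OVCAR3-labelled (orange) pair, with exact 95% counting intervals as bars and dashed lines at 2-fold. The SKOV3 ratios lie between -0.01 and 0.86, nearly all on the side of higher in the knockout, and the OVCAR3 ratios lie between -2.00 (MCM2) and 2.33 (CCNE2).

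In the SKOV3-labelled pair the replication genes were slightly higher in the knockout library, and the median of each of the 12 complexes was above 0. Of the 46, 43 had a log2 ratio above 0, against 51.1% of 13524 measured genes, and the median was 0.25, against 0.01 for all measured genes. The counting interval lay above 0 for 37 members, spanned 0 for 9 and lay below 0 for none, against 17.6% above and 18.1% below among measured genes. The interval narrows as the count grows, so such shares depend on depth too. No member passed 2-fold in either direction, as 0.799% of measured genes did upward and 0.739% downward. With a fold of 1.5, POLD3 and FAM111B passed upward and none downward, as 3.73% and 2.80% of measured genes did.

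FAM111B, which encodes a protease-domain protein of proliferating cells (chromosome 11, 59107237 to 59127412), had the highest SKOV3 ratio. It was at 22.8 CPM in SKOV3 mock and 41.5 in SKOV3 KO, on 514 and 654 counts, a log2 ratio of 0.86 (0.70 to 1.04). In the OVCAR3-labelled libraries it was at 6.82 CPM in mock and 20 in KO, a ratio of 1.54 (1.24 to 1.88). The knockout library was thus higher in both pairs, while both OVCAR3 levels lay below both SKOV3 levels. POLD3, an accessory subunit of polymerase delta (chromosome 11, 74592582 to 74669341), was at 25.2 CPM in SKOV3 mock and 43.3 in SKOV3 KO, a ratio of 0.78 (0.62 to 0.94). Its OVCAR3 levels were 14.7 and 26.3 CPM, a ratio of 0.84 (0.61 to 1.08). Next in order was CLSPN, which encodes claspin, the adaptor that passes the replication stress signal from ATR to CHK1, at 64.9 and 92.6 CPM in the SKOV3 libraries (0.51, 0.41 to 0.62) and 43.0 and 63.7 in the OVCAR3 ones (0.57, 0.42 to 0.71). For these 3 genes the ratios of both pairs pointed upward, with counting intervals clear of 0.

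The complexes differed little from each other in SKOV3. Medians ran from 0.03 for nucleotide supply to 0.51 for the fork and other S-phase genes. Licensing genes had a median of 0.36, with CDT1, the MCM loader, at 114 CPM in mock and 157 in KO (0.47, 0.39 to 0.55) and CDC6 at 115 and 151 CPM (0.40, 0.32 to 0.48). The 6 MCM2-7 subunits had ratios between 0.09 for MCM6 and 0.37 for MCM2. Polymerase alpha and primase (4 genes, 0.17 to 0.32) and the clamp and its loader (6 genes, 0.17 for PCNA to 0.34 for RFC3) were the most even groups of more than 2 genes, with an SD over genes of 0.06 and 0.07. The 3 members below 0 each had -0.01 with an interval that spanned 0: GINS3, a subunit of the helicase activator GINS, at 19.5 and 19.3 CPM, TYMS (thymidylate synthase) at 62.5 and 62.3, and RRM2 (the regulated subunit of ribonucleotide reductase) at 374 and 370. Without a scaling factor, and with the trend on GC content and length removed, all 3 were above 0. TK1, the salvage thymidine kinase, stood apart from the other nucleotide genes at 123 and 160 CPM (0.39, 0.31 to 0.47). Removing the trend on GC content and length left the SKOV3 median at 0.25.

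In the OVCAR3-labelled pair the same genes parted widely. Cyclin E2, geminin, GINS1, GINS2 and the polymerase epsilon subunit POLE2 were several-fold higher in the knockout library. MCM2, CDT1 and the polymerase delta subunits POLD1 and POLD2 were several-fold lower there. The median was 0.36, against 0.16 for 15560 measured genes and -0.02 for the protein-coding ones, and 31 of 46 ratios were above 0, against 56.2% of measured genes and 49.3% of the protein-coding ones. The comparison of medians depends on the filter, since with no filter on low counts the median of all genes was 0.51, above that of the members, and with CPM of at least 5 it was -0.03. By the size rule 11 members passed 2-fold upward and 5 downward, against 22.5% and 15.4% of measured genes and 13.0% and 18.3% of the protein-coding ones. The upward share is close to that of all measured genes. At a fold of 1.5 the counts were 17 and 9, against 33.5% and 25.2%. The balance of the 2 directions depends on the scaling. With DESeq2 size factors, which moved the median of all genes by -0.21, there were 7 upward and 9 downward. With TMM factors from all rows, which moved it by -0.29, there were also 7 and 9. Without a scaling factor there were 9 and 8. No share of all genes past 2-fold is given for these scalings, so whether the counts differ from the background was not tested. The counting interval lay above 0 for 28 members, below 0 for 14 and spanned 0 for 4, and it lay above 0 for 44.8% and below 0 for 34.9% of measured genes. These intervals do not cover the choice of scaling. With DESeq2 size factors the ratio of 37 members fell outside its interval, and with TMM factors from all rows that of 43. The SD of the ratio over the 46 members was 1.00, against 1.11 over protein-coding and 1.35 over all measured genes, so the members' SD was not the larger. Measured genes include those of lower counts, with more counting error, so these SDs are not matched for depth.

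**Figure D2:**
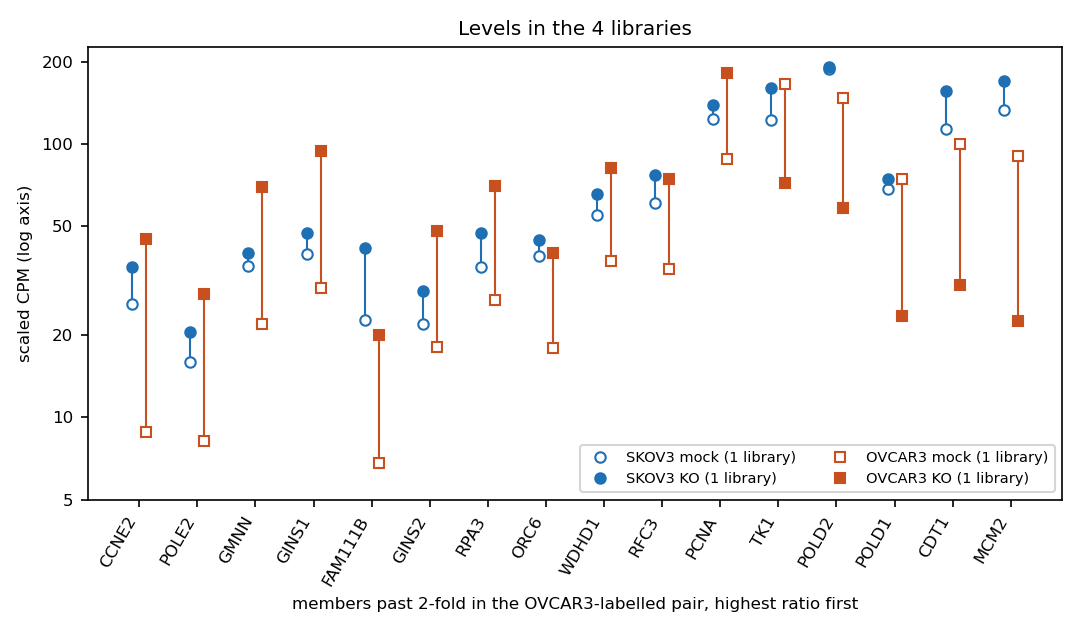
Scaled CPM (vertical log axis) of the 16 members past 2-fold in the OVCAR3-labelled pair, ordered by that ratio, in each of the 4 libraries (open: mock, filled: KO, circles: SKOV3, squares: OVCAR3), with lines joining mock and KO of a label. For the 11 genes on the left the OVCAR3 mock level lies lowest of the 4, and for TK1, POLD2, POLD1, CDT1 and MCM2 on the right the OVCAR3 KO level does.

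Among the licensing genes, GMNN and CDT1, an inhibitor and its target, went opposite ways in OVCAR3. GMNN was at 21.9 CPM in OVCAR3 mock and 69.8 in OVCAR3 KO, a ratio of 1.67 (1.5 to 1.85), while the SKOV3 libraries were at 35.8 and 40.0 (0.16, 0.01 to 0.31). CDT1 (chromosome 16, 88803789 to 88809258) was at 100 CPM in OVCAR3 mock and 30.5 in OVCAR3 KO, a ratio of -1.72 (-1.87 to -1.57). The OVCAR3 KO library thus held the highest GMNN and the lowest CDT1 level of the 4. The ORC subunits also parted. ORC6, the smallest subunit, was at 18.0 and 40.1 CPM in the OVCAR3 libraries (1.15, 0.96 to 1.37) and at 39.0 and 44.5 in the SKOV3 ones, and ORC1, the subunit that cycles with G1, at 21.9 and 16.3 CPM (-0.43, -0.67 to -0.19). CDC6, the licensing ATPase, was at 91.6 and 115 CPM (0.33, 0.23 to 0.43).

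The MCM2-7 subunits, which work in equal numbers in the hexamer, had OVCAR3 ratios on both sides of 0. MCM2 (chromosome 3, 127598411 to 127622436) had the lowest ratio of all 46 genes. It was at 133 CPM in SKOV3 mock, 171 in SKOV3 KO, 90.6 in OVCAR3 mock and 22.6 in OVCAR3 KO, and its OVCAR3 ratio was -2.00 (-2.18 to -1.83). MCM7 and MCM5 followed at -0.96 (-1.04 to -0.89) and -0.91 (-1.08 to -0.75), and MCM3 was at -0.48 (-0.58 to -0.38). MCM4 had 0.26 (0.16 to 0.36), and MCM6 was higher in the knockout library, at 88.4 CPM in mock and 144 in KO (0.70, 0.60 to 0.80), against 146 and 155 CPM in the SKOV3 libraries. MCM4 turned to the other side of 0 with TMM factors from all rows. The SD of the log2 ratio over the 6 subunits was 0.10 in SKOV3 and 0.96 in OVCAR3. Over all protein-coding genes, which include those of lower counts, it was 0.29 and 1.11. Of the exon bases of MCM2, 22.7% overlap an annotated antisense transcript, and the strand setting of the counting is not known.

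Helicase activation genes were higher or near their mock level in OVCAR3, with a median of 0.46. GINS1 (chromosome 20, 25407673 to 25448563) was at 29.7 CPM in mock and 94.5 in KO (1.67, 1.52 to 1.82), against 39.6 and 47.4 in the SKOV3 libraries. GINS2 was at 18.1 and 47.9 CPM (1.40, 1.21 to 1.60), and at 22 and 29 in SKOV3. GINS4 had 0.59 (0.35 to 0.83) and GINS3, at 13.1 and 12.6 CPM, -0.07 (-0.36 to 0.22), so the 4 subunits of this tetramer also differed. CDC45 had 0.23 (-0.01 to 0.47), and MCM10, which helps to activate the helicase, 0.33 (0.17 to 0.49).

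Subunits of the same polymerase went different ways. POLD1, the catalytic subunit of polymerase delta, was at 68.8 and 74.3 CPM in the SKOV3 libraries, 74.7 in OVCAR3 mock and 23.5 in OVCAR3 KO, an OVCAR3 ratio of -1.66 (-1.85 to -1.5). POLD2, which bridges POLD1 and POLD3, had 147 and 58.5 CPM (-1.33, -1.45 to -1.22), and 189 and 192 in SKOV3, whereas POLD3 was higher, as given above. In polymerase epsilon the catalytic POLE was at 126 and 145 CPM in SKOV3 and at 100 and 81.2 in OVCAR3 (-0.30, -0.41 to -0.19). The accessory POLE2 was at 15.9 and 20.5 CPM in SKOV3 and at 8.22 and 28.2 in OVCAR3 (1.76, 1.49 to 2.07). The catalytic subunit was thus slightly lower and the accessory one several-fold higher in OVCAR3 KO. Polymerase alpha and primase were close to the mock level in the catalytic subunit POLA1, which was at 75, 84.3, 46.6 and 47.1 CPM in SKOV3 mock, SKOV3 KO, OVCAR3 mock and OVCAR3 KO (OVCAR3 0.01, -0.14 to 0.16). PRIM1, the catalytic primase subunit, had the highest ratio among them, at 40.4, 50.7, 31.2 and 48.7 CPM in the same order (OVCAR3 0.64, 0.48 to 0.81). An annotated same-strand gene shares 14.9% of the exon bases of PRIM1.

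At the clamp, PCNA was at 88.4 CPM in OVCAR3 mock and 182 in OVCAR3 KO (1.04, 0.95 to 1.13), and at 124 and 139 in the SKOV3 libraries. Per kilobase of transcript it had the highest level of all members in OVCAR3 KO, at 134 CPM per kilobase, whereas TK1 led in OVCAR3 mock at 98.9 and MCM7 in both SKOV3 libraries, at 112 and 133. Clamp loader subunits ran from RFC2, at 55.8 and 50.5 CPM in OVCAR3 (-0.14, -0.29 to 0.00) and 96.9 and 113 in SKOV3, to RFC3, at 34.8 and 74.8 CPM in OVCAR3 (1.10, 0.96 to 1.25) and 61.0 and 77.2 in SKOV3. In the RPA trimer, which coats single-stranded DNA, the ratio differed by subunit. The large subunit RPA1 was at 166 and 117 CPM in OVCAR3 (-0.50, -0.59 to -0.42) and at 146 and 154 in SKOV3, the middle RPA2 had an OVCAR3 ratio of 0.54 (0.42 to 0.68), and the small RPA3 was at 26.8 and 70.4 CPM in OVCAR3 (1.39, 1.23 to 1.55) and at 35.4 and 47.1 in SKOV3. Of the genes that finish Okazaki fragments, the flap endonuclease FEN1 was at 54.4 and 74.7 CPM in OVCAR3 (0.46, 0.33 to 0.59) and 66.1 and 88.3 in SKOV3. The ligase LIG1 was at 46.1 and 26.3 CPM in OVCAR3 (-0.80, -0.99 to -0.63) and 44.2 and 49.5 in SKOV3. FEN1 shares 6.7% of its exon bases with the opposite-strand gene TMEM258, whose own OVCAR3 ratio was 0.94.

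Nucleotide supply genes split as well. TK1 was at 166 CPM in OVCAR3 mock and 71.9 in OVCAR3 KO (-1.21, -1.31 to -1.11), and RRM2 at 303 and 157 CPM (-0.95, -1.02 to -0.88), while RRM1, the large ribonucleotide reductase subunit, was at 99.3 and 147 CPM (0.57, 0.48 to 0.66), and at 130 and 136 in SKOV3. An annotated same-strand gene shares 20.2% of the exon bases of RRM2. TYMS had 0.26 (0.11 to 0.41), and 39.1% of its exon bases overlap the opposite-strand gene ENOSF1, which was at 34.1 and 107 CPM in the OVCAR3 libraries. The value of TYMS is therefore uncertain.

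The E-type cyclins, which both activate CDK2, also parted. CCNE2 was at 26.0 CPM in SKOV3 mock and 35.6 in SKOV3 KO (0.46, 0.29 to 0.63). In OVCAR3 mock it was at 8.83 CPM and in OVCAR3 KO at 44.9, on 145 and 662 counts, a ratio of 2.33 (2.09 to 2.62). The OVCAR3 libraries thus held both its lowest and its highest level. CCNE2 shares 37% of its exon bases with INTS8 on the opposite strand, whose own OVCAR3 ratio was 0.43, at 93.2 and 125 CPM, so the counting may have split reads between them. CCNE1 was at 19.4, 19.7, 25.3 and 25.6 CPM in SKOV3 mock, SKOV3 KO, OVCAR3 mock and OVCAR3 KO, a ratio of 0.02 in both pairs. OVCAR3 is known for an amplified CCNE1 locus. The OVCAR3-labelled mock exceeded the SKOV3-labelled one by a log2 ratio of 0.38 (0.18 to 0.57), a fold of 1.30. Copy number was not tested here, so this difference is no check of the label. Of the remaining S-phase genes, WDHD1, which links the helicase to polymerase alpha, was at 37.5 and 81.9 CPM in the OVCAR3 libraries (1.13, 0.99 to 1.27) and at 55.1 and 65.6 in the SKOV3 ones.

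**Figure D3:**
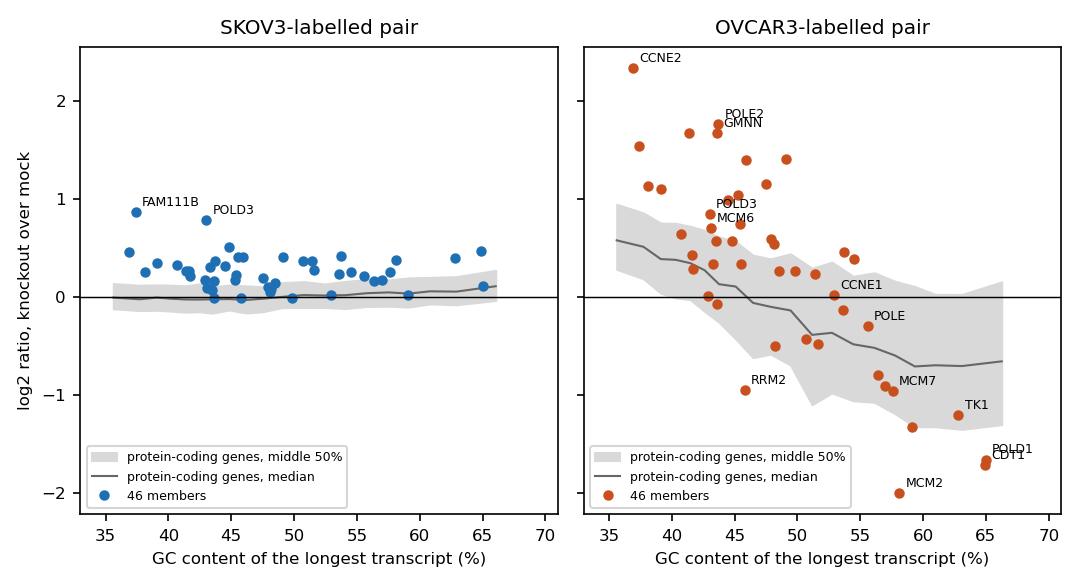
Log2 ratio of knockout over mock (vertical axis) against the GC content of the longest transcript (horizontal axis, percent) for the 46 members (points) in each pair, over the median (line) and middle 50% (grey band) of protein-coding genes in 20 bins of GC content. In OVCAR3 the members run from CCNE2 at upper left to MCM2, CDT1 and POLD1 at lower right, and in SKOV3 they lie flat, mostly above the band's median.

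The OVCAR3 ratios of the members followed GC content. Across the 46 genes the Spearman correlation of ratio and transcript GC was -0.74 (Pearson -0.81), and in SKOV3 it was -0.14; genes of 1 library pair share depth and composition, so this is a description. Protein-coding genes were divided into 3 groups of equal size at 44.0% and 54.2% GC. In the lower group 15 of 16 members were above 0 and 7 past 2-fold upward, with a median of 0.77, against a median of 0.40 for 4181 protein-coding genes, of which 16.1% passed upward. In the upper group 1 of 10 members was above 0 and 5 passed 2-fold downward, with a median of -1.08, against -0.63 for protein-coding genes, of which 34.8% passed downward. The exception in that group was POLA2, the second subunit of polymerase alpha, at 54.5% GC and a ratio of 0.38 (0.09 to 0.68). An annotated same-strand gene shares 35.1% of the exon bases of POLA2, so this value is uncertain. In the middle group, with 20 members, the medians were 0.39 and -0.14.

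Some partners within complexes that diverged also differed in GC content. MCM2 has 58.1% and MCM6 43.1%, POLD1 65.0% and POLD3 43.0%, POLE 55.6% and POLE2 43.7%, CDT1 64.9% and GMNN 43.6%. CCNE1 has 52.9% and CCNE2 36.9%. Other partners went against this order. Among them, GINS2, with 49.1%, had 1.40 and GINS3, with 43.6%, had -0.07. RFC1, with 41.7%, had 0.28, below PCNA with 45.3% and 1.04, RFC4 with 45.4% and 0.74, and RFC5 with 44.5% and 0.99. RPA1 and RPA2 have nearly equal GC content, 48.2% and 48.1%, and had ratios of -0.50 and 0.54. RPA1 and RPA3, the latter with 45.9% and 1.39, followed the order across a small difference in GC content. So did RRM2, with 45.8% and -0.95, and RRM1, with 43.5% and 0.57. When the trend of protein-coding genes on GC content and length was removed, 28 of 46 members were above 0 with a median of 0.32, against -0.13 for protein-coding genes, and 7 passed 2-fold upward and 3 downward. Of the protein-coding genes 42.4% were above 0 after this step, 11.6% passed upward and 13.2% downward, so the members' counts past 2-fold are near the background. The 7 were CCNE2 at 1.66, GINS2 at 1.46, POLE2 at 1.37, GINS1 at 1.26, RPA3 at 1.2, GMNN at 1.12 and ORC6 at 1.03. The 3 were MCM2 at -1.5, CDT1 at -1.16 and POLD1 at -1.09. RRM2 stayed at -0.99. A correlation with GC content of -0.52 remained among the members.

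**Figure D4:**
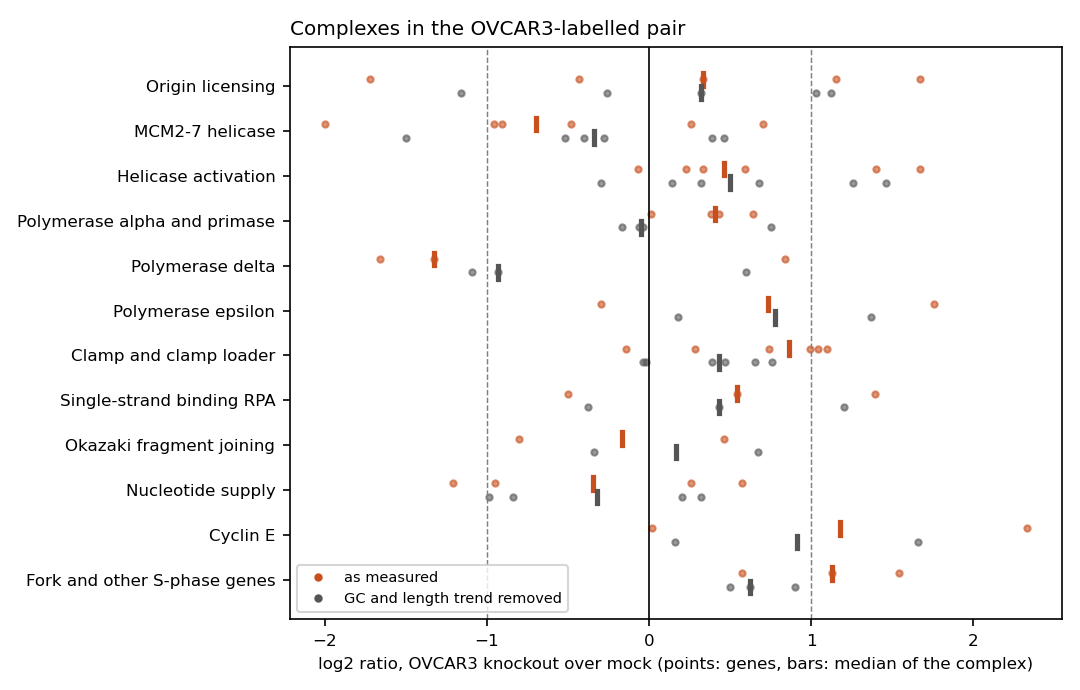
OVCAR3 log2 ratio (horizontal axis) of the genes of each complex (points, with the median as a bar), as measured (orange) and with the trend on GC content and length removed (grey). The MCM2-7 median moves from -0.70 to -0.34 and that of polymerase alpha and primase from 0.41 to -0.05, while polymerase delta stays lowest at -0.93.

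By complex, the medians with the trend removed ran from -0.93 for polymerase delta and -0.34 for MCM2-7 to 0.78 for polymerase epsilon and 0.91 for cyclin E. Polymerase alpha and primase moved from 0.41 to -0.05, with PRIM1 from 0.64 to -0.06, the largest move of any member. The clamp and its loader moved from 0.86 to 0.43. Helicase activation genes had 0.50, close to the 0.46 before.

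Between the mock libraries the replication genes were lower in the one labelled OVCAR3. Of the 46 members 41 had a ratio of OVCAR3 mock over SKOV3 mock below 0, against a share above 0 of 50.5% among measured genes, and the median was -0.41, against 0.01. None passed 2-fold upward and 4 downward, as 9.47% and 5.52% of measured genes did. Related lists were lower there too: the median was -0.51 for recombination genes (19 of 23 below 0), -0.36 for other replication genes (32 of 41) and -0.17 for mitotic genes (22 of 28). The 4 members past 2-fold were FAM111B at -1.72 (-2.05 to -1.44), CCNE2 at -1.54 (-1.83 to -1.29), ORC6 at -1.11 (-1.31 to -0.93) and CDC45 at -1.04 (-1.25 to -0.85). The highest were TK1 at 0.44 (0.36 to 0.52) and CCNE1. These ratios share the OVCAR3 mock library with the OVCAR3 knockout ratios and the SKOV3 mock library with the SKOV3 ones, so a low value in a mock library enters both. Between the knockout libraries, which share neither mock, 32 of 46 were lower in OVCAR3 KO than in SKOV3 KO, with a median of -0.33 against 0.15 for measured genes, of which 55.5% were above 0, and 13 passed 2-fold downward and none upward, against 14.5% and 25.3% of measured genes. The summed level of the 46 genes was 3976 CPM in SKOV3 mock, 4623 in SKOV3 KO, 3049 in OVCAR3 mock and 3075 in OVCAR3 KO.

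Other genes of replication and S-phase control, 42 by symbol and 41 with enough counts in each pair, had medians closer to 0 than the 46 members; the difference was not tested. In SKOV3 33 of 41 were above 0, against 51.1% of measured genes, with a median of 0.14 and none past 2-fold. In OVCAR3 28 of 41 were above 0, against 56.2% of measured genes, with a median of 0.20. There 3 passed 2-fold upward and 4 downward, against 22.5% and 15.4% of measured genes. The 3 were ATAD5, which unloads PCNA, at 11 CPM in mock and 40.2 in KO (1.86, 1.62 to 2.12), the MCM-related helicase gene MCM8 at 1.57 (1.42 to 1.73) and the nuclease-helicase gene DNA2 at 1.27 (1.06 to 1.51). The 4 were DNMT1, the maintenance DNA methyltransferase, at 271 and 80.4 CPM (-1.75, -1.85 to -1.66), the dNTP hydrolase gene SAMHD1 at -1.09 (-1.29 to -0.90), POLD4, the smallest polymerase delta subunit, at -1.07 (-1.29 to -0.86), and UHRF1, which recruits DNMT1 to replicated DNA, at -1 (-1.18 to -0.83). The member of this list with too few counts was E2F2.

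Genes of mitosis and of homologous recombination and the Fanconi pathway gave a scale for these values. In SKOV3 the median was 0.20 for 28 mitotic genes and 0.18 for 23 recombination genes, against 0.25 for the 46 replication genes, and the difference between the lists was not tested. There 26 of 28 mitotic and 21 of 23 recombination genes were above 0, against 51.1% of measured genes. In OVCAR3 19 of 28 mitotic and 18 of 23 recombination genes were above 0, against 56.2% of measured genes. Past 2-fold were 3 mitotic genes upward and 4 downward, and 8 recombination genes upward and none downward. Of measured genes 22.5% passed upward and 15.4% downward. The OVCAR3 medians were 0.25, 0.46 and 0.36 for mitosis, recombination and replication, and with the trend removed 0.00, 0.45 and 0.32.

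Over both lines, with the line as a block, edgeR's quasi-likelihood test called none of the 46 genes and none of 13693 genes tested, in either direction (0% called, Benjamini-Hochberg adjusted p of at least 0.957 for each member). At an unadjusted p under 0.05 there were 147 genes, 1.07% of those tested, among them CCNE2, with an estimated log2 change of 1.39 and an unadjusted p of 0.0257, and FAM111B, with 1.2 and 0.0184. Both were higher in the knockout library in 2 of 2 lines. The share of 1.07% is smaller than a threshold of 0.05 would give with no effect at all. The unadjusted p-values of this test therefore do not single out either gene. DESeq2 and limma-voom also called no member. The fit has 1 residual degree of freedom and a dispersion of 0.127, which includes the disagreement between the lines. In direction, 30 members were above 0 in both pairs, 13 above 0 in SKOV3 only, 1 in OVCAR3 only, and 2 below 0 in both, against 26.4%, 24.4%, 23.8% and 25.4% of the genes measured in both. Counting intervals lay above 0 in both pairs for 23 members and for 7.41% of those genes. For 6 members the interval lay above 0 in SKOV3 and below 0 in OVCAR3 with ratios at least 1 apart, as for 4.33% of genes measured in both and 11.1% of protein-coding genes in the upper GC group, which holds all 6. Across the members the Spearman correlation of the ratios of both pairs, which share no library, was 0.29, and across 13294 genes measured in both it was 0.04.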

How the data were processed

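Per the labels' protocols, Trizol RNA went into strand-specific libraries (NEBNext Ultra II Directional). TopHat and the build GRCh38 are named in the submitters' processing notes; for the counting tool, annotation release and strand setting, no source used here gives one. The authors deposited raw read counts per gene symbol, 58173 rows per library. Rows of the 2687 symbols that occur more than once were summed, giving 52402 symbols.

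Counts were scaled with TMM factors (edgeR 4.0.16, R 4.3.3) from genes with CPM of at least 1 in 2 libraries: 1.024, 1.041, 1.008 and 0.931 for SKOV3 mock, SKOV3 KO, OVCAR3 mock and OVCAR3 KO. Log2 ratios used a prior count of 2, and intervals are Clopper-Pearson bounds on the counts. A count of 0 allows up to 3 counts, 0.133 to 0.204 CPM. The size rule was 2-fold in either direction (log2 ratio past 1), among genes passing the filter; no p-value is given within a line. Over both lines edgeR's quasi-likelihood test (line as a block, Benjamini-Hochberg threshold 0.05) was fitted, with DESeq2 1.42.0 and limma-voom (limma 3.58.1) as alternatives. The fit was also run on simulated data, but no outcome of that run is reported here, so it gives no error rate. The trend on GC content and log length was a spline with 5 degrees of freedom each, over protein-coding genes, using the longest GENCODE 29 transcript; coordinates and promoters are from RefSeq GRCh38.p14. Nothing in the labels says how cultures were kept apart, so a p-value reflects spread among 4 libraries, which may be technical. Factors from all rows were computed first and their values seen; factors from expressed genes, as in earlier processing of these data, were then taken as main, and both are reported. All members could be named; those past 2-fold, the 3 highest and lowest per line and the extremes of each complex are given with their values. Members, lists and motifs were chosen with earlier results of these data known.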

Additional observations from a re-analysis of the deposited data

Results flagged for a closer look

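Members whose counting intervals lay on opposite sides of 0 in the 2 pairs, with ratios at least 1 apart on the log2 scale, were taken as differing between the lines. There were 6 of 46, each higher in the knockout in SKOV3 and lower in OVCAR3, as were 4.33% of the 13294 genes measured in both pairs. MCM2 had 0.37 in SKOV3 and -2.00 in OVCAR3, CDT1 0.47 and -1.72, POLD1 0.11 and -1.66, TK1 0.39 and -1.21, MCM7 0.25 and -0.96, and MCM5 0.17 and -0.91. With 1 library per group the difference between the lines was not tested. The SKOV3 interval of POLD1, 0.00 to 0.22, only just cleared 0. All 6 are among the 10 members in the upper group of GC content, where 11.1% of protein-coding genes met the same rule. With the trend on GC content and length removed their OVCAR3 ratios were -1.5, -1.16, -1.09, -0.84, -0.52 and -0.40 in the same order. Their SKOV3 ratios were then 0.33, 0.37, 0.02, 0.34, 0.21 and 0.16, so MCM7 and MCM5 lay less than 1 apart.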

How the results depend on the processing

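The SKOV3 median of 0.25 was between 0.23 and 0.27 under all alternatives run, and no member passed 2-fold there, while 2 passed a fold of 1.5. The OVCAR3 median of 0.36 stayed above 0 under all alternatives run, at its lowest of 0.07 with TMM factors from all rows (chosen after seeing the data, as were SKOV3 factors without the OVCAR3 KO library). The 16 members past 2-fold in OVCAR3 became 10 with the trend on GC content and length removed, 26 at a fold of 1.5 and 7 at a fold of 3. No share of all genes is given at a fold of 3. With DESeq2 size factors POLA1 and CCNE1 changed sign in OVCAR3, and with TMM factors from all rows MCM4, CDC45, RFC1 and TYMS did too. The trend removal changed the sign of POLA1, PRIM1, PRIM2, POLE and RFC1. The test over both lines called 0 members under each alternative, without the block too. No paired analysis by replicate number was possible because each group has 1 library, and leaving out a library leaves no comparison within that line. Depth limits little here: the lowest member count was 112.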
